A study of Mus musculus with 5 samples.

Results

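Positions were taken here that lay in a CpG island and a promoter at or downstream of a transcription start site, on the autosomes, and that the authors listed as differently methylated between G5 and G0 common myeloid progenitors. They were chosen by the authors' island and promoter flags and by a distance of 0 bp or more to the nearest start site, on chromosomes 1 to 19, in both deposited tables together. The rule was met by 527 of the 4688 listed positions, 339 higher and 188 lower in G5, on 519 distinct CpGs and at 385 genes. Methylation values had no part in this choice among listed positions, but every listed position had been selected by the authors for a difference between the same 5 samples.

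Reduced representation bisulfite sequencing measures cytosine methylation in genome fragments cut at CCGG, so it covers CpG-rich DNA. The cells were common myeloid progenitors, sorted by flow cytometry from the bone marrow of mice of a background labelled mainly C576BL/6. The G0 samples were 3 pools of mice of genotype TERTER/+, labelled normal, and the G5 samples were 2 pools of genotype TERTER/ER, labelled as having short telomeres. Each sample gave 14000 to 30000 cells and 29 to 38 M reads, of which about 63% aligned, per the labels. The TERTER allele is a fusion of Tert, the reverse transcriptase of telomerase, with the hormone-binding part of the estrogen receptor, and both groups carried it. Because G5 mice differed from G0 mice in Tert genotype and in telomere state, these cannot be told apart in this comparison. For the age of the mice and the number in a pool, nothing is stated in the labels. Read coverage of a position is not part of the tables, so the depth of each percent is unknown and no interval is given. A changed mixture of cells within the sorted fraction and a change within the same cells cannot be told apart in bulk DNA.

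A CpG island is a stretch rich in cytosine followed by guanine, which elsewhere in mammalian genomes is depleted because methylated cytosine mutates readily. Islands at start sites are as a rule free of methylation in most tissues, whether or not the gene is active, and dense methylation there is associated with stable silencing, as on imprinted genes, the inactive X chromosome and germline genes in somatic cells. Islands of developmental transcription factors are often held by Polycomb complexes instead, and such islands tend to gain methylation with age and in cancer. Beyond the start site an island can run on through the first exon and into the first intron.

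The stretches at which the results below turn are printed first, so that the spacing of the listed CpGs can be seen. They are given 5′ to 3′ on the plus strand of GRCm38.p6 (the assembly of mm10, from RefSeq), with the CpGs that the authors listed in capitals and all else in lower case, coordinates counted from 1. At Tert (chr13:73627084-73627153), 84 to 153 bp from the start site, 7 of 7 CpGs were listed, all higher in G5.
Tert: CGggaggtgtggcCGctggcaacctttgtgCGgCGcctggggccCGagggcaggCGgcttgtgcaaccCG
At Scx (chr15:76457641-76457797), the coding part of a longer run of listed CpGs is shown, with 4 of 20 CpGs listed, all higher.
Scx: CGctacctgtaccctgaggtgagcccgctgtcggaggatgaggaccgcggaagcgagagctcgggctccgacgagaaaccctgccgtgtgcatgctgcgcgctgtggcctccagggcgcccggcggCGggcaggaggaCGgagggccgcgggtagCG
At Nsd1 (chr13:55210285-55210332), 5 of 8 CpGs within 48 bp of an intron were listed as higher.
Nsd1: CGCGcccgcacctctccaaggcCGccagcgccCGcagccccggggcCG
At Gm7120 (chr13:119489072-119489108), 4 of 4 CpGs within 37 bp of an intron were listed as lower.
Gm7120: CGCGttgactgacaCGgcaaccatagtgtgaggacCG
Listed CpGs of both directions lay close together at Rbm46 (chr3:82875999-82876237), with 4 of 40 CpGs of an intronic stretch listed, and at Rbmxl2 (chr7:107209966-107210127), with 6 of 33, which is why both are shown.
Rbm46: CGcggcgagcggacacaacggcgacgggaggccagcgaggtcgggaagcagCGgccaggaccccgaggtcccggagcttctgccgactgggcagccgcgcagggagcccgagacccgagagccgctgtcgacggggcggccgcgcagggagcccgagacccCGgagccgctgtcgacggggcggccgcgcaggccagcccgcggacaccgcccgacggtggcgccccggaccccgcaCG
Rbmxl2: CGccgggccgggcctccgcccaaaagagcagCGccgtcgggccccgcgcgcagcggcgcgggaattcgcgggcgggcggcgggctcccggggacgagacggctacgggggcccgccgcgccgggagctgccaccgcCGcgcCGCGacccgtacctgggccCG

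At most of the listed positions downstream of start sites, methylation was low in G0 or in G5. The authors' differences there were mostly modest steps up from or down to a low level. Some genes described below, such as Tert, Hoxa5 and Kcng1, stood at higher levels in both groups. Unlisted CpGs of the islands were not analysed. At the 339 positions listed as higher, the mean level over positions was 12.9, 12.6 and 12.5% in G0 pools 1 to 3 and 30.3 and 26.8% in G5 pools 1 and 2. Both G5 pools lay above all G0 pools, by 15.8 points between group means (12.7% ± 0.204, SD, n = 3, against 28.5% ± 2.46, SD, n = 2; exact permutation test over samples, two-sided, p = 0.1). At the 188 positions listed as lower, the mean was 25.0, 22.8 and 24.4% in the G0 pools and 9.0 and 9.55% in the G5 pools. The G5 pools lay below all G0 pools, by 14.8 points (24.1% ± 1.11, n = 3, against 9.27% ± 0.385, n = 2; exact permutation test, two-sided, p = 0.1). With 3 pools against 2 there are 10 splits, and 0.1 is the smallest p that this test allows, so it cannot reach 0.05. The direction of both means was fixed by the authors' tables and is given as a description.

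**Figure D1:**
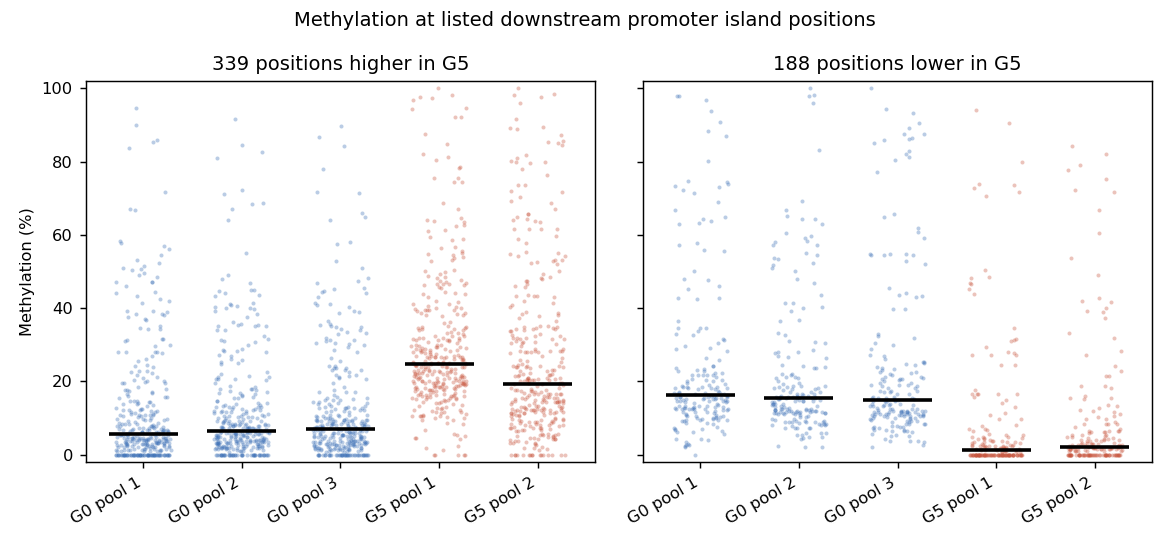
Percent methylation of the member positions in each of the 5 pools, drawn separately for the 339 positions listed as higher and the 188 listed as lower in G5, with black lines at the medians. Most positions sat near the floor in G0 where they were higher in G5, and near the floor in G5 where they were lower.

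The G0 mean was under 10% at 229 of the 339 higher positions (67.6%) and at or above 50% at 11. In G5, 158 of them stood between 10 and 20% and 49 at or above 50%. All G0 pools read 0 at 26 higher positions. Of the lower positions 130 of 188 (69.1%) stood between 10 and 20% in G0 and 26 at or above 50%, and 128 (68.1%) were under 5% in G5. Both G5 pools read 0 at 48 lower positions. Medians over positions show the same low levels: 5.51, 6.56 and 6.90% in the G0 pools and 24.7 and 19.2% in the G5 pools at higher positions, against 16.4, 15.5 and 14.8% and then 1.36 and 2.15% at lower positions.

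Not every listed position separated the pools. The G5 pools lay above every G0 pool at 271 of the 339 higher positions (79.9%), where the share over all listed higher positions was 86.9%. At 168 of the 188 lower positions (89.4%) both G5 pools lay below every G0 pool, where the share over all listed lower positions was 83.9%. In a limma fit over all 4688 positions, with Benjamini-Hochberg adjustment, 89 higher (26.3%) and 28 lower (14.9%) island positions passed an adjusted p of 0.05, against 33.2% and 33% of all listed higher and lower positions. The smallest adjusted p was 0.0412. The shares of island positions called by limma in this fit were thus below those of all listed positions. The shares without overlap lay on either side. Since the authors selected positions on these same samples, these counts describe how well the pools separate and are not independent evidence of a difference. On a log2 ratio scale limma called 128 and 135, and with a variance trend 169 and 95. For these other fits the shares over all listed positions were not computed, so the comparison above holds for the first fit only. Without G5 pool 1 the limma counts were 110 and 20 and without G5 pool 2 they were 162 and 22, while no position was called (0 higher, 0 lower) when G0 pool 1, 2 or 3 was left out. An unadjusted p under 0.05 was then found at 105, 107 and 106 higher positions and at 67, 57 and 59 lower ones.

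The G5 pools were often far apart from each other at the higher positions. The median gap between the G5 pools was 11.5 points at higher and 1.72 points at lower positions, and the median SD of the G0 pools was 2.74 and 5.31 points. G5 pool 2 stayed within or below the G0 range at 47 higher positions and G5 pool 1 at 21. Without G5 pool 1 the sign of the difference turned at 32 of the 339 higher positions and the difference shrank below 50% of its value at 91. Without G5 pool 2 these counts were 14 and 40. For the lower positions they were 2 and 9 without G5 pool 1, and 4 and 7 without G5 pool 2.

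Positions ran from 0 to 997 bp past the start site, with a median of 299 bp. By the matched RefSeq transcript 139 lay in a 5′ UTR (26.4%), 193 in a coding exon (36.6%), 156 in an intron (29.6%) and 31 in an exon of a noncoding transcript (5.88%), while 4 lay outside the transcript and 4 could not be matched. The share listed as higher was 61.9% in 5′ UTRs, 67.4% in coding exons, 61.5% in introns and 67.7% in noncoding exons. It had no steady trend along the first 1 kb, with 63.3% in the first 100 bp, 50.6% at 200 to 299 bp, 47.4% at 400 to 499 bp and 80.6% at 800 to 999 bp, over 98, 77, 57 and 36 positions. Over the 8 distance bins the median G0 level of higher positions ran from 5.07 to 7.17% and their median G5 level from 17.9% in the first 100 bp to 24.9% at 300 to 399 bp. At lower positions the median G0 level was 25.8% at 500 to 599 bp (11 positions) and between 12.9 and 15.7% in the other bins, and the median G5 level ran from 1.17 to 7.69%. The promoter flag in the files ran further than the 500 bp downstream of the design text, and 136 positions lay beyond 500 bp, 100 higher and 36 lower.

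**Figure D2:**
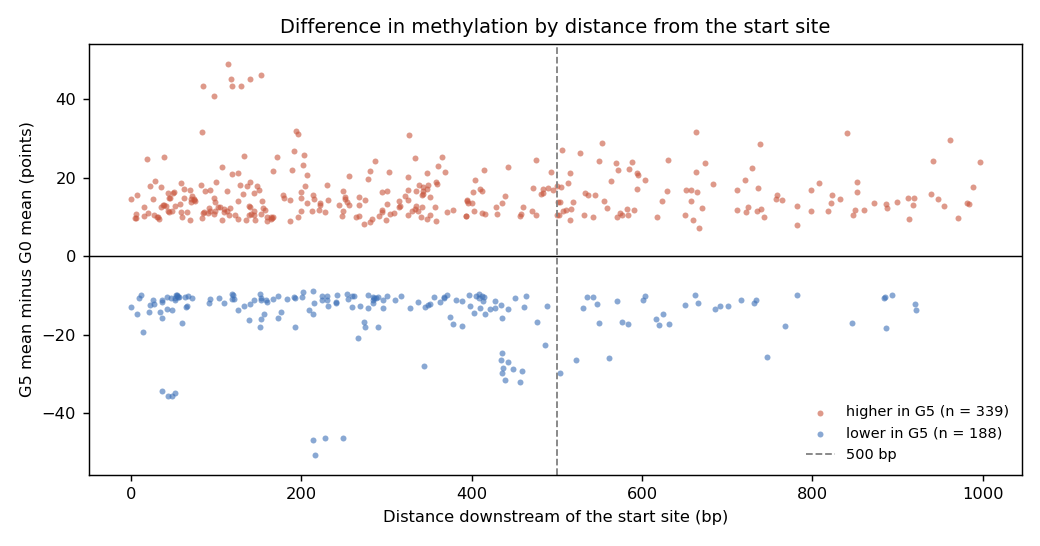
Difference in percent methylation, G5 minus G0 mean, of each member position against its distance downstream of the start site in bp. Higher and lower positions spread over the whole range from 0 to 997 bp, and differences of over 40 points sat only at Tert (higher) and Gm7120 (lower).

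At the edge of the rule, the position of Nrbf2 lay 0 bp from the start site and read 0, 0 and 0% in G0 and 23.8 and 5.41% in G5. The Cds2 position, also at 0 bp, read 17.8, 15.2 and 23.1% in G0 and 3.13 and 8.33% in G5. Just outside, 6 bp upstream of 2410004B18Rik, levels were 8.16, 18 and 11.1% in G0 and 0 and 1.43% in G5. Levels 10 bp upstream of Mir219-2 were far higher, at 89.9, 78.9 and 75% in G0 and 98 and 94.2% in G5, so low and high levels both stood next to the edge.

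The DNA around the positions was CpG-dense, which the rule's island flag calls for. In a window of 100 bp on each side, median GC content was 70.8% at higher and 71.8% at lower positions, the median number of CpGs 21 and 23, and the median observed over expected CpG ratio 0.841 and 0.887. The ratio exceeded 0.6 at 95.4% of the member positions and 93.75% of promoter island positions upstream of start sites, against 48.4% of all listed positions. A GGGCGG hexamer, the core of the GC box bound by Sp factors, was found on either strand in 46.0% of the windows of higher and 53.2% of lower positions, and in 28.1% of those of all listed positions. In promoter islands upstream of start sites it was found at 45.9% of higher and 76.9% of lower positions, so it was not particular to downstream positions. CCGG, where the libraries were cut, stood within 50 bp of all 527.

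Neighbouring listed CpGs mostly had the same direction. Of neighbouring pairs within 100 bp, 98 were listed in the same direction and 12 in opposite directions. Genes with many listed positions, such as Hoxa5 and Scx, gave several of these pairs. The same count was not made over all listed positions, so this is not shown to be particular to these islands. At 8 CpGs both strands were listed, with a median gap of 4.87 points between the strands' levels. The exception was a Hoxa5 CpG, whose plus-strand level was 90.9, 100 and 93.2% in G0 and 48.3 and 84.3% in G5 and whose minus-strand level was 64.3, 50.9 and 54.7% and then 16.7 and 37.3%. Its levels differed by 38.6 points between strands on average, and both strands were lower in G5, by 28.4 and 29.7 points.

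Of the 385 genes 232 had only higher positions, 139 only lower and 14 both. One position was listed at 327 genes, 2 at 29, and 3 or more at 29. The genes described below are those with the most positions in a direction, those with the largest authors' difference, and the leading gene of each gene list. Each pool's value is its mean over the gene's listed positions.

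Among genes with higher positions, Tert had the widest separation. Tert encodes the catalytic subunit of telomerase and is the gene altered in these mice. Its 8 positions, within 153 bp of the start site, averaged 52.1, 40.8 and 35.2% in G0 and 87.4 and 87.1% in G5. The G5 pools stood far above G0, by 44.6 points (42.7% ± 8.61, n = 3, against 87.2% ± 0.236, n = 2), and 8 of 8 passed limma, the smallest adjusted p being 0.0412. The labels give G5 mice 2 TERTER alleles and G0 mice 1, and reads of the altered and the normal allele cannot be told apart in the tables.

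Scx encodes scleraxis, a bHLH transcription factor of tendon progenitors, and had the most higher positions, 13 between 57 and 360 bp. They averaged 11.9, 10.5 and 9.70% in G0 and 26.3 and 26.8% in G5. The pools did not overlap at any of the 13, the difference was 15.9 points, and 7 passed limma (smallest adjusted p 0.0426). Nsd1 encodes a histone H3 lysine 36 methyltransferase. Its 5 intronic positions at 504 to 550 bp averaged 23.1, 18.6 and 17.9% in G0 and 36.3 and 46.3% in G5, a difference of 21.4 points with 2 of 5 past limma. Fignl2, a gene of the AAA ATPase fidgetin family, had 7 positions between 62 and 532 bp at 23.4, 22 and 24.9% in G0 and 37.1 and 39.4% in G5. Its difference was 14.8 points, with 6 of 7 free of overlap and 1 past limma.

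Other genes were higher in both G5 pools but leaned on 1 of them. Zfp783, a zinc finger gene, had 7 positions at 22.8, 19 and 20.3% in G0 and 32.3 and 55.5% in G5, a difference of 23.2 points and of 11.6 without G5 pool 2. Gm10190, a predicted gene, had 7 at 15.1, 15.7 and 20.1% in G0 and 39.9 and 27.6% in G5, a difference of 16.8 points and of 10.7 without G5 pool 1. Gm996, also a predicted gene, had 5 at 5.69, 4.63 and 6.77% and then 24.0 and 13.4%, a difference of 13 points and of 7.74 without G5 pool 1. In these 3 genes 2, 1 and 2 positions passed limma.

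Fam83g, Oxtr, Tcfl5 and Cdh8 had both G5 pools well above G0. Fam83g had 4 coding positions at 39.6, 35 and 36% in G0 and 53.7 and 62.9% in G5, 21.4 points apart, 3 of them past limma. Oxtr, the oxytocin receptor, had 3 at 24.3, 21.2 and 29.2% in G0 and 44.2 and 60.9% in G5, 27.6 points apart, with 1 past limma. Tcfl5, a bHLH factor of spermatocytes, had 3 at 22.1, 18.5 and 23.7% in G0 and 45.2 and 45.3% in G5, 23.8 points apart, with 2 past limma. The neuronal cadherin Cdh8 had 2 at 22.9, 26.2 and 33.7% in G0 and 54.2 and 55.4% in G5, 27.2 points apart, both past limma. At none of these genes did the G0 and G5 pools overlap in their means. The genes were named by listed positions and authors' differences from the same samples, which favours such separation. No share over all genes is given here.

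Some genes with 1 higher position stood out by the authors' difference or as the leading gene of a list. Rbfox1, a splicing regulator of neurons and muscle, read 8.24, 12.2 and 10.4% in G0 and 41.9 and 28.7% in G5 (25.0 points; limma adjusted p 0.0426). Sox2, a factor of pluripotent and neural progenitor cells, read 10.5, 4.55 and 3.57% at 841 bp in G0 and 22.9 and 52.4% in G5 (31.4 points, and 16.6 without G5 pool 2; limma adjusted p 0.0468). Hoxa4, a homeobox gene of axial patterning, read 0.99, 0 and 0% in G0 and 19.4 and 0% in G5. Hoxa4 thus rested on G5 pool 1, without which its difference of 9.36 points became -0.33.

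**Figure D3:**
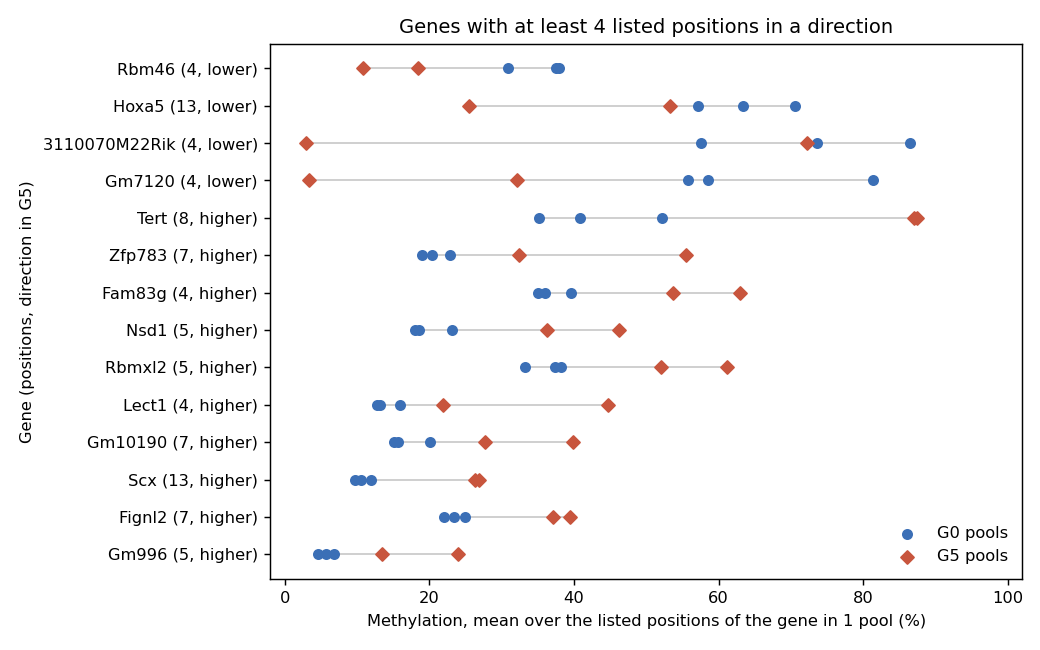
Percent methylation of each pool, averaged over the listed positions of a gene, for the genes with at least 4 listed positions in a direction. Both G5 pools of Tert stood at 87%, above all G0 pools, while those of Hoxa5 stood at 25.5 and 53.2%.

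Hoxa5 had the most lower positions, 13 in its coding exon at 415 to 632 bp. It encodes a homeobox factor of axial patterning that in human marrow progenitors favours the myeloid fate. Levels were 70.6, 57.1 and 63.4% in G0 and 25.5 and 53.2% in G5. The G5 pools were lower but far apart: the difference was -24.3 points (63.7% ± 6.73, n = 3, against 39.4% ± 19.6, n = 2), -10.4 without G5 pool 1 and -38.2 without G5 pool 2. The pools did not overlap at 8 of the 13, and 4 passed limma.

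Gm7120 and 3110070M22Rik, at the same place on chromosome 13, had large but unequal shifts. Gm7120 had 4 intronic positions at 58.5, 55.8 and 81.3% in G0 and 32.1 and 3.32% in G5, a difference of -47.5 points, with 4 of 4 past limma. 3110070M22Rik had 4 at 73.6, 57.6 and 86.5% in G0 and 72.2 and 2.88% in G5. Its G5 pool 1 lay within the G0 range, no position passed limma, and the difference of -35 points became -0.331 without G5 pool 2. The authors' own differences at these 4 positions were smaller, from -18.0 to -19.8 points. At the 4 Gm7120 positions they were larger than the difference between means of pools, from -52.7 to -59.0 points. No function is given here to either gene.

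Kcng1 encodes a subunit of voltage-gated potassium channels. It had 2 lower positions at 98.0, 96.9 and 97.2% in G0 and 76.8 and 75.6% in G5. Its levels fell by 21.2 points with tight pools in both groups, and both positions passed limma (smallest adjusted p 0.0412).

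Other lower positions stood at or near 0 in G5. Doc2b, a calcium sensor of vesicle release, had 1 position at 20.3, 33.3 and 29.8% in G0 that read 0 in both G5 pools (limma adjusted p 0.0412). Pou3f2, a POU factor of neural cells, read 34.6, 28.1 and 25.0% in G0 and 0 and 7.41% in G5 (limma adjusted p 0.0426). At Trp73, a member of the p53 family, levels were 9.68, 13.9 and 11.9% in G0 and 0 in both G5 pools. Mdm2, the ubiquitin ligase of p53, read 14.9, 10.2 and 9.90% in G0 and 0 and 1.92% in G5. Neither Trp73 nor Mdm2 passed limma. Neither overlapped between groups, which was also so at 83.9% of all listed lower positions.

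At 14 of the 385 genes, matched by gene symbol, member positions of both directions were listed. Over all listed positions this was so at 314 of 2797 genes, where positions outside promoter islands also count. Mixed direction was thus not particular to these islands. Rbm46, a germ cell RNA-binding protein gene, had 4 lower positions at 434 to 583 bp at 37.4, 30.8 and 37.9% in G0 and 10.8 and 18.4% in G5, 3 of them past limma. Its 2 higher positions at 249 to 325 bp stood at 32.4, 25.0 and 33.0% in G0 and 44.9 and 43.8% in G5, and neither passed limma. The differences were -20.8 and 14.2 points, so the order of the pools turned within the first 600 bp.

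Rbmxl2, a testis RNA-binding protein gene, had 5 higher positions at 37.3, 38.2 and 33.2% in G0 and 61.2 and 52% in G5, and 3 passed limma. Its lower position at 523 bp read 62.9, 64.3 and 52.9% in G0 and 24.4 and 42.9% in G5 (-26.4 points, -17.2 without G5 pool 1; limma adjusted p 0.0456). Trhde, which degrades thyrotropin-releasing hormone, had 1 CpG higher on both strands, at 37.0, 43.5 and 33.8% in G0 and 59.7 and 58.4% in G5. Its 2 lower positions read 22.4, 18.5 and 20.4% in G0 and 4.38 and 11.4% in G5. At both genes each direction kept the pools apart in its means, which the authors' selection of positions on these same samples favours.

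Peg12 is an imprinted gene expressed from the paternal copy, in the region linked in humans to Prader-Willi syndrome. It had 3 lower positions at 22.3, 31.1 and 24.3% in G0 and 8.50 and 11.6% in G5 (-15.8 points) and 1 higher at 14.3, 21.2 and 15.3% in G0 and 22.8 and 61.5% in G5. The higher position's difference of 25.3 points was 5.91 without G5 pool 2.
Peg12 (chr7:62464101-62464240, 4 of 21 CpGs listed): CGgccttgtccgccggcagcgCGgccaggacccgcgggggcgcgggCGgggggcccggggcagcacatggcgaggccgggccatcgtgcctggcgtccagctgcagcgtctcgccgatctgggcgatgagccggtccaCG
At Gm10190, 1 lower position at 254 bp, at 10, 5.26 and 16.7% in G0 and 0 and 2.17% in G5, stood among its higher ones.

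**Figure D4:**
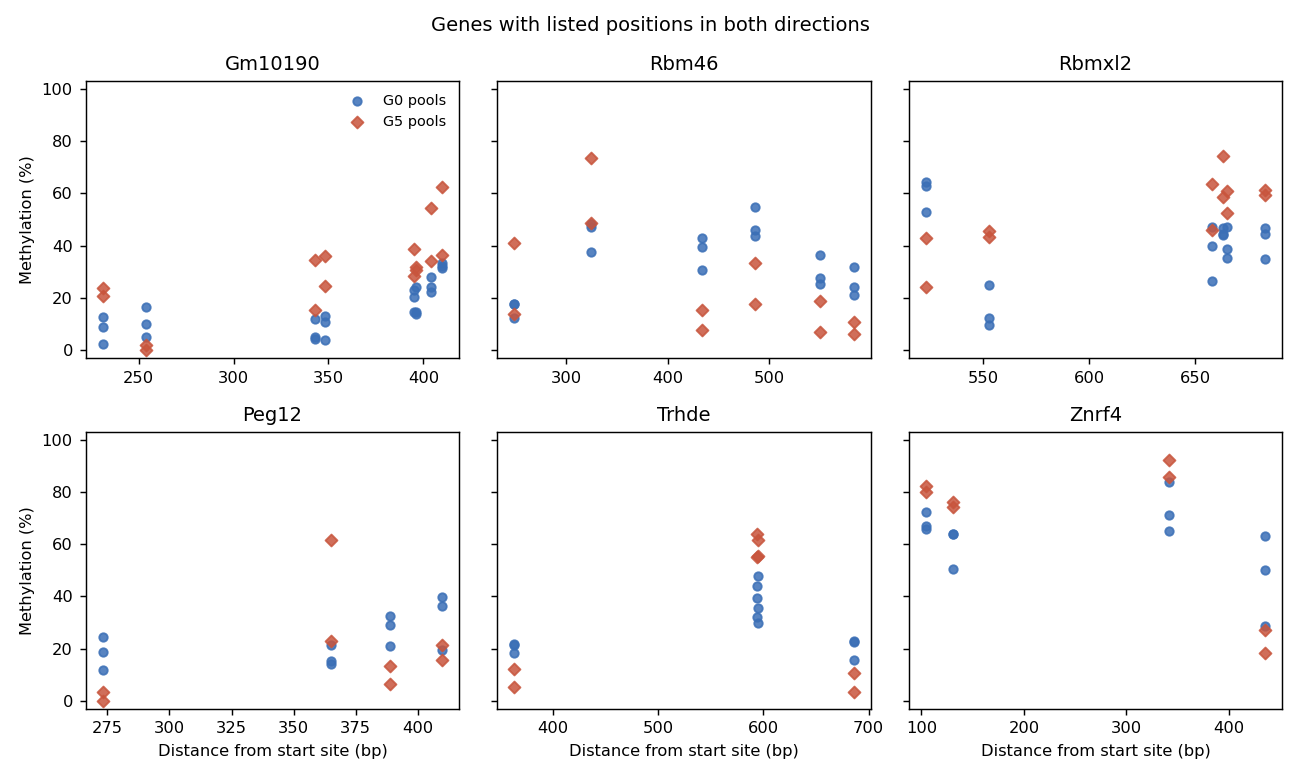
Percent methylation of each listed position in each pool against its distance from the start site in bp, at Gm10190, Rbm46, Rbmxl2, Peg12, Trhde and Znrf4, with circles for G0 and diamonds for G5 pools. At Rbm46, Rbmxl2 and Trhde the higher and the lower positions each separate both G5 pools from all G0 pools in their means. The authors listed these positions for a difference between the same pools.

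Gene lists by function, made from names and name patterns, held 131 of the 385 genes. They are not complete: Tcfl5, Bhlha15 and Npas1 of the bHLH factors, Nkx2-4 of the homeobox genes, Oxtr of the receptors, Nsd1 of the chromatin genes and the imprinted Peg12 are member genes that their lists do not hold. The counts below are read against the shares of all listed positions: 86.9% of the higher and 83.9% of the lower ones kept the pools apart, and 33.2% and 33% passed limma.

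The list of forkhead, Sox, T-box, bHLH and GATA factors, which direct embryonic lineages, had 13 genes and 32 positions higher, among them Scx, Foxf1, Foxd3 and Hand1, and 3 genes with 3 positions lower, Foxk2, Max and Neurog1. At the 32 higher positions 29 kept the pools apart and 12 passed limma, 7 of them in Scx, both close to the shares of all listed higher positions, and the median difference was 15 points beside 14.2 over all higher members. None of the 3 lower ones passed limma. Outside Scx, the 5 positions past limma were 2 in Foxe1, a thyroid factor, and 1 each in Foxc2, Foxj1 and Sox2. Foxf1, a factor of visceral mesoderm, had 2 higher positions at 2.75, 1.60 and 3.01% in G0 and 24.5 and 9.35% in G5. Foxd3, of neural crest, read 4.09, 5.98 and 3.57% in G0 and 26 and 11.5% in G5. Both genes kept their pools apart, with G5 pool 1 well above pool 2, and neither passed limma.

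Other homeobox genes had 11 genes and 12 positions higher, including Cdx1, Cdx2, Lmx1b and Tlx3, from a median of 2.89 to one of 17.3%, of which 9 kept the pools apart, against 86.9% of all listed higher positions, and none passed limma, against 33.2%. Their 3 lower genes were Barhl1, Lhx8 and Pou3f2, with Pou3f2 the 1 that passed limma. Cdx2, a factor of trophectoderm and intestine, read 0, 0 and 2.67% in G0 and 28.1 and 8.47% in G5, and Lmx1b, of limb and midbrain, 7.34, 9.0 and 3.74% in G0 and 19.2 and 17% in G5.

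The list of channels, transporters and receptors was the longest, with 26 genes and 30 positions higher and 12 genes and 15 positions lower, of which 5 and 3 passed limma, against 33.2% and 33% of all listed positions. Their median differences were 13.6 and -11.9 points. The higher positions of the list past limma were 1 each in Atp2c2, Gabra5, Slc25a28, Slc30a3 and Slc45a1, and the lower ones 2 in Kcng1 and 1 in Slc6a5. That of Gabra5, a GABA receptor subunit, read 37.1, 25.9 and 15.5% in G0 and 56.5 and 55.3% in G5 (29.7 points; limma adjusted p 0.0444). That of Slc6a5, a glycine transporter, read 19.4, 14.6 and 20.7% in G0 and 3.49 and 4.49% in G5 (-14.2 points; limma adjusted p 0.0496). The Gabra5 and Slc6a5 positions kept the groups apart. Over the whole list 22 of 30 higher and 14 of 15 lower positions did so, against 86.9% and 83.9% of all listed positions. Zinc finger genes had 7 genes with 14 positions higher, 3 past limma, and 3 genes with 3 positions lower, none past limma. The pools stayed apart at 8 of these 14 higher and at all 3 lower positions. Wnt, BMP, Notch and FGF signalling held Fgf17 and Wnt7b higher and Bmp2, Dll1, Nkd2 and Wnt10a lower, none past limma. That list also left out member genes of these pathways in both directions, such as Rspo1 and Pygo1 higher and Dtx1 and Prickle2 lower. Its balance of directions is therefore not that of the pathways. Adhesion and guidance genes had 5 genes higher with 2 positions past limma, both in Cdh8, and 4 lower with none, among them Ntn1 and Epha2. The list of splicing and chromatin genes held Prdm12, Rbfox1 and Smarca4 higher, with 2 past limma, and Celf6 lower with none. Smarca4, a chromatin remodelling ATPase, was at 0 in all G0 pools and at 21.9 and 3.03% in the G5 pools. Noncoding and unnamed genes had 14 genes with 27 positions higher, 9 past limma, and 12 with 21 lower, 8 past limma. Their pools stayed apart at 26 of the 27 higher and 15 of the 21 lower positions. Eif4ebp1 was listed as higher and Eif3g and Mrpl9 as lower among ribosome and mitochondrial genes, none past limma.

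Besides Peg12, described above and not on it, the list of imprinted genes held Mkrn3 higher, at 22.9, 12.5 and 23.0% in G0 and 37.8 and 34.3% in G5, and Dio3 and Magel2 lower. Dio3, which inactivates thyroid hormone, read 19, 18.8 and 9.30% in G0 and 0 in both G5 pools, and Magel2 read 28.2, 28.1 and 19.4% in G0 and 13.1 and 11.9% in G5. None of the 3 passed limma, and none overlapped between the groups. Lists of myeloid progenitor, erythroid and megakaryocyte, and lymphoid genes held 0 member genes, so the sorted cell type could not be checked by these positions.

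Compared with promoter islands upstream of start sites, the share listed as higher was nearly the same, at 64.3% of the downstream and 63.1% of the 176 upstream positions. In autosomal promoters outside islands 56.2% of 329 positions were higher. Mean levels at higher positions were lowest downstream, at 12.7% in G0 and 28.5% in G5. They were 18.2% ± 0.182 and 33.9% ± 0.295 upstream and 34.4% ± 0.390 and 52.1% ± 0.657 outside islands. Medians over positions lay closer between downstream and upstream, at 6.32 and 7.58% in G0 (mean of the pools' medians). In G5 pools 1 and 2 the medians were 24.7 and 19.2% downstream and 24.1 and 20.7% upstream. The downstream level was thus not the lower one by the median of G5 pool 1. Between the means, downstream minus upstream was -5.52 points ± 0.342 in G0 and -5.37 ± 2.16 in G5 at higher positions. The 2 kinds of position thus differed by 0.148 points in their change (exact permutation test, two-sided, p = 0.8). At lower positions downstream minus upstream was -4.11 ± 2.82 in G0 and -1.39 ± 10.8 in G5 (a change of 2.72 points, exact permutation p = 0.8). Both kinds of position were listed by the authors for a difference between these same samples, so similar changes are partly set by that selection. These tests therefore cannot decide whether the 2 kinds of position change alike. The upstream lower positions were 18% in G5 pool 1 and 3.29% in pool 2, while the downstream ones stood at 9.0 and 9.55%.

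**Figure D5:**
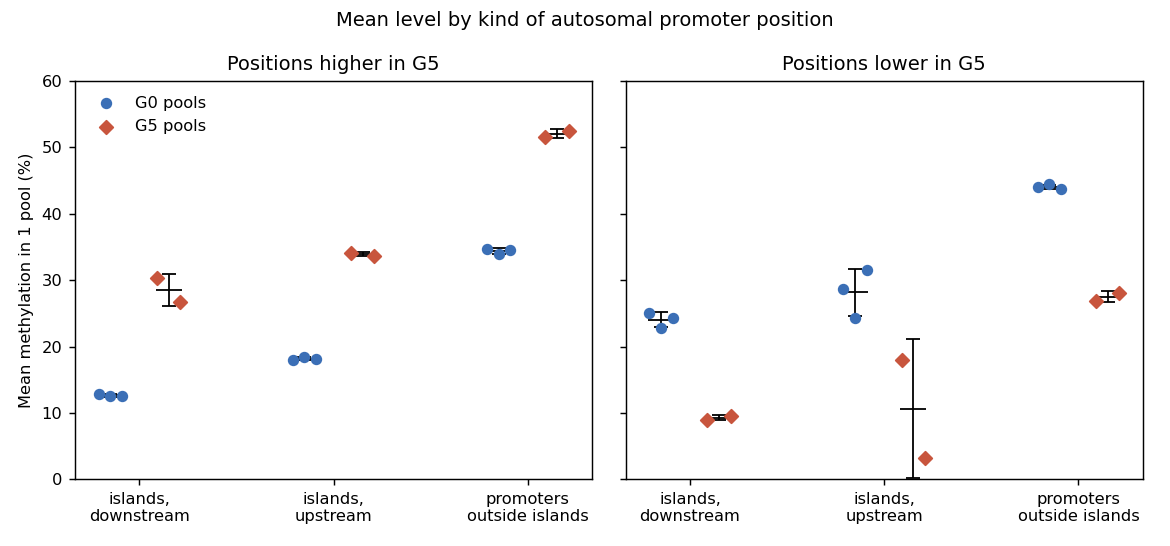
Mean percent methylation in each pool of promoter island positions downstream of start sites, promoter island positions upstream, and promoter positions outside islands, higher and lower positions apart, with bars for the group mean ± SD. Levels outside islands were the highest in both directions, and the downstream change was 15.8 points at higher positions against 15.7 upstream.

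The authors' own differences, taken from the authors' deposited table, had a median of 14.1 points at higher and -11.9 at lower member positions, against 16.3 and -16.5 over all listed positions. In the authors' deposited table, differences of 20 points or more stood at 63 higher and 21 lower member positions, the extremes being 49.0 and -59.0 points. Of the 385 genes 94 had 200 further listed positions outside the set, and at 12 of these genes some lay in an upstream promoter island.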

How the data were processed

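Per the series' design text, reduced representation bisulfite reads of 3 G0 and 2 G5 pools were aligned to mm10, and groups were compared by Fisher's exact test. The submitters' processing notes name Bowtie, Bismark 0.7.11 and methylKit. For the minimum coverage, and for Bowtie's and methylKit's versions, nothing is given in the sources used here. What the authors deposited is a pair of tables, one of positions higher and one of positions lower in G5, with the percent methylation of each sample, p-values and q-values, a difference in percentage points, annotation flags and the distance to the start site, per the file headers. In these tables the smallest absolute difference was 10.0 points and the highest q-value 0.00999. Unlisted CpGs were not analysed here. The design text gives a promoter window ending 500 bp downstream of start sites, while the flag in the files reached 997 bp.

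Positions were read as CpG cytosines of GRCm38.p6 (all 4688 matched) and placed in RefSeq transcripts by name (523 of 527 member positions). Percent methylation was compared with limma 3.58.1 (R 4.3.3) over all 4688 positions, with Benjamini-Hochberg adjustment. On simulated data of that size limma called 38.3% of shifts of 20 points, 73.6% of shifts of 40 points and 9 of 4488 unchanged positions. The simulated percents were normally distributed, without a floor at 0, with the G0 spread in both groups, and only 94 and 106 positions were shifted. In the real data every position was selected for a difference, many lay near 0, and the G5 spread differed from that of G0. These rates therefore do not carry over to the listed positions. Sample means were compared by exact permutation over 5 samples. Per the labels, each sample was a separate pool of mice. Named genes, per direction, were 8 genes by number of positions, 5 by the largest authors' difference, the leading gene of each list, and every gene with both directions; not every gene that this rule names is reported here. Members and gene lists were chosen with earlier results of these data known. Alternatives were other scales, a variance trend, stricter limits, 1 position per cluster (listed positions within 1 kb of the next), fewer pools and a replicate block.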

Additional observations from a re-analysis of the deposited data

How the results depend on the processing

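Of the limma counts (89 higher and 28 lower), the lower one was 135 on the log2 ratio scale, and both changed with a variance trend, to 169 and 95. With a replicate block both were 0, though an unadjusted p under 0.05 was found at 70 higher and 26 lower positions. The pool numbers are not known to pair the pools: only numbers 1 and 2 occur in both groups, and the deviations of same-numbered pools correlated by 0.0124 and 0.0476 over 4688 positions. Leaving out 1 pool in turn moved the limma counts between 0 and 162 (higher) and 0 and 22 (lower), where a lone G5 pool is assumed to vary like the others. It moved the counts without overlap between 275 and 318 (higher) and between 170 and 179 (lower). With a pool left out such counts can only stay or rise, so it was fixed beforehand that none fell below 271 and 168. The mean differences moved between 14.1 and 17.6 and between -15.4 and -14.3 points. Downstream minus upstream moved between -1.38 and 1.68 (higher) and between -4.93 and 10.4 (lower).

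With an authors' q-value under 0.001, 110 higher and 75 lower positions were free of overlap, the mean differences were 19.1 and -16.2 points, and the change in downstream minus upstream was 2.13 at higher and 6.33 at lower positions. With differences of at least 20 points these values were 58, 19, 26.7, -30.5, 2.22 and -1.24, the last turned from 2.72, the share listed as higher was 75% and the higher limma count 56. Both limits leave fewer positions. The limit of 20 points selects on the difference itself, so larger mean differences under it were fixed beforehand, and a q-value limit also favours large differences. The lower mean difference of -14.8 points was -13.8 as a median over positions, -12.7 with 1 value per cluster and, in an alternative chosen after seeing the data, -13.6 without the chromosome 13 locus of 3110070M22Rik and Gm7120. Positions up to 500 bp, also chosen afterwards, kept every summary value within its class, with 61.1% listed as higher. For the named genes 429 of 489 alternative values stayed within the spread between pools, 59 moved, and 1 reversed, Hoxa4 at -0.330 without G5 replicate 1. Leaving out a G0 pool or taking 1 value per CpG or cluster moved none, which was largely fixed beforehand by how that spread is computed and by the averaging. The total of 429 is therefore no measure of stability. Without G5 pool 1, 36 values stayed, 24 moved and 1 reversed. Without G5 pool 2, 36 stayed and 25 moved. The cause of these shifts was not tested. Coverage per position is unknown, so a level of 0 may rest on few reads, and steps of 10 to 20 points cannot be weighed by depth.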

Other observations

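Values are given here for 11 member genes that act in germ cells, picked by hand after their values were seen and with no test: Tdrd1, Tdrd5, Tdrd6 and Rnf17, Tudor-domain proteins of germ cells, Rbm46, Rbmxl2 and Ybx2, which bind RNA there, the factors Tcfl5, Dmrt1 and Dmrtb1, and Znrf4, a ubiquitin ligase named here for its testis expression. They had 19 higher positions at 10 genes, 17 of them free of overlap, and 8 lower positions at 4 genes, 6 free of overlap, near the 86.9% and 83.9% of all listed higher and lower positions. Their median level was 37.9% in G0 and 56.8% in G5 at higher positions and 47.8% and 24.1% at lower ones. Rnf17 read 71.8, 68.8 and 84.2% in G0 and 92.2 and 95.9% in G5, and Dmrtb1 85.9, 91.5 and 86.8% in G0 and 100 and 98.4% in G5, so both started from a high level. Tdrd5 stood at 17.1, 24.7 and 21.7% in G0 and 40.2 and 38.6% in G5. Tdrd1 had 2 lower positions at 95.3, 90.6 and 90.0% in G0 and 92.4 and 63.5% in G5, and its pools overlapped.

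Nkx2-4, a homeobox gene that the name pattern of the homeobox list missed, had 3 higher positions at 3.35, 3.65 and 4.0% in G0 and 23.3 and 6.31% in G5, with most of the difference in G5 pool 1.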
